A study of Mus musculus with 6 samples.

Results

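The fatty acid elongases and desaturases measured here are 10 genes, chosen by symbol: the elongases *Elovl1*, *Elovl2*, *Elovl3*, *Elovl5* and *Elovl6*, the stearoyl-CoA desaturases *Scd1* and *Scd2*, and the fatty acid desaturases *Fads1*, *Fads2* and *Fads3*. They are 10 of 45777 genes in the table, and all 10 are among the 18636 genes tested. Liver RNA came from 3 WT mice, which carried *Pak4* flox/flox alleles without Cre, and 3 LKO mice, which carried Alb-Cre and *Pak4* flox/flox. All 6 were male C57BL/6 mice, 8 weeks old and fasted for 24 h, and the floxed controls were littermates. The sex is taken from the paper's account of the sequenced mice, since the labels do not give it. No fed group enters the comparison. The albumin promoter drives Cre in hepatocytes, so the other cells of an LKO liver keep *Pak4*, a serine/threonine kinase of the p21-activated family. One library was made per mouse, so the spread between libraries is a spread between animals.

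Elongases of the ELOVL family carry out the first, condensing step by which the endoplasmic reticulum lengthens an acyl-CoA with malonyl-CoA, and each member prefers acyl chains of a certain length and saturation. Desaturases of the same membrane place double bonds with electrons from cytochrome b5. In liver, stearoyl-CoA desaturases make the monounsaturated fatty acids of stored triglyceride, *Fads1* and *Fads2* together with *Elovl5* and *Elovl2* make long polyunsaturated fatty acids from dietary precursors, and many of these genes are textbook targets of the sterol regulatory element-binding protein SREBP-1c.

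RefSeq promoter entries on GRCm38.p6, the assembly that mm10 represents, were held for 6 of the 10 genes, as 8 promoters. *Scd1*, *Scd2*, *Fads1* and *Elovl3* had no entry. The 250 bases before the start are printed for 4 genes that run from a large to no detected difference between the genotypes: *Elovl6* at chr3:129532136-129532385 on the plus strand, *Fads2* at chr19:10101504-10101753 on the minus strand, *Elovl5* at chr9:77917115-77917364 on the plus strand and the first start of *Elovl2* at chr13:41220404-41220653 on the minus strand. Each reads 5′ to 3′ toward the start, and the capitals mark the motif matches named after the sequences.
Elovl6: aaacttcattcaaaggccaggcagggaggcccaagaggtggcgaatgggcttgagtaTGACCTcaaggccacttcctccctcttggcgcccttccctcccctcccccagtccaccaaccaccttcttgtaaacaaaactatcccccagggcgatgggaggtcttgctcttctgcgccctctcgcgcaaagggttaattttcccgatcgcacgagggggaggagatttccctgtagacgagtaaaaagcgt
Fads2: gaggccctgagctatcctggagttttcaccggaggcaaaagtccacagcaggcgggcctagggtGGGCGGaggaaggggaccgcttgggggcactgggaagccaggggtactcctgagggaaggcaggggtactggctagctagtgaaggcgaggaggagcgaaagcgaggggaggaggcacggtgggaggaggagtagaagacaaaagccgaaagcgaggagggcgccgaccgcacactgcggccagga
Elovl5: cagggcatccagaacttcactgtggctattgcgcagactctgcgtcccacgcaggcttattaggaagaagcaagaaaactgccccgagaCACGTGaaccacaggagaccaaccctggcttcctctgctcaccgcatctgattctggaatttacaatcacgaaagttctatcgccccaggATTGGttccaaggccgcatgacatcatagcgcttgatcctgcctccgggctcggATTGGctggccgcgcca
Elovl2: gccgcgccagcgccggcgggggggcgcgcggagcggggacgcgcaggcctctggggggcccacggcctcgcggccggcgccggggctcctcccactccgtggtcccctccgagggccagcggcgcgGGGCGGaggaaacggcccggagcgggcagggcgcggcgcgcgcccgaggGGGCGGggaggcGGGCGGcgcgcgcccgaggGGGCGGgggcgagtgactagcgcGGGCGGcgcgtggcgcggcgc

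The letters searched on both strands were CCAAT, the GC box GGGCGG, the E-box CACGTG, the TATA box TATAAA, the SREBP element core TCACNCCAC, the nuclear receptor core AGGTCA and the STAT site TTCNNNGAA, over all 32851 promoter entries from 250 bases before to 50 bases after the start. In the printed sequences, *Elovl6* held 1 nuclear receptor core on the minus strand, *Fads2* held 1 GC box, *Elovl5* held 1 E-box and 2 CCAAT boxes on the minus strand, and *Elovl2* held 5 GC boxes. GC boxes occurred in 5 of the 8 promoters and in 35.7% of all promoters, and CCAAT boxes in 3 of the 8 and in 37.4%. Nuclear receptor cores occurred in 2 of the 8 and in 16.3%, and the E-box in 1 of the 8 and in 7.15%. The SREBP element core, the TATA box and the STAT site were found in 0 of the 8 promoters, against 1.24%, 13.6% and 8.3% of all promoters. One CCAAT box of *Elovl1* overlapped a GC box. The GC content over the 300 bases was 55.7% for *Elovl6*, 57.7% for *Elovl5*, 67% for *Fads2* and 84.7% for *Elovl2*, beside a median of 52.7% over all promoters. These matches describe letters only.

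Total counts per library were 45934632 to 55205564 in WT livers and 53936281 to 59576437 in LKO livers. Levels between libraries are given as CPM, read counts brought to one library size with trimmed means of M values (TMM), a factor per library that sets aside the most changed genes. These factors were 1.28 to 1.43 in WT livers and 0.639 to 0.816 in LKO livers. The 10 highest genes took 16.2 to 17.3% of the counts in WT libraries and 30.6 to 36.3% in LKO libraries, and protein-coding genes took 88.5 to 89.6% and 77.3 to 80.7%. The targeted gene, *Pak4*, was at 3.59, 3.21 and 4.1 CPM in WT livers 1, 2 and 3 and at 1.93, 1.49 and 3.22 in LKO livers 1, 2 and 3. Its log2 fold change, LKO over WT, was −0.71 ± 0.31 (standard error) and did not pass the threshold (edgeR's quasi-likelihood test, Benjamini-Hochberg adjusted p = 0.1). Counts cover the whole gene, including the part outside the floxed segment, and the non-hepatocytes of the liver.

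Of the 10 genes, 7 were called lower in LKO livers at an adjusted p under 0.05 and 0 were called higher. None was called higher by edgeR's exactTest, DESeq2 or limma either, and all 10 fold changes were negative in edgeR's quasi-likelihood test, so none was higher at an unadjusted p under 0.05. Among all genes tested, 40.1% were called, 20.5% lower and 19.6% higher. *Scd1*, *Elovl6*, *Elovl3*, *Elovl1*, *Fads2*, *Fads1* and *Elovl5* fell, whereas *Scd2*, *Elovl2* and *Fads3* did not pass the test. The values of the 2 genotypes did not overlap for 8 of the 10 genes, all lower in LKO, beside 27.9% of all genes lower without overlap. The median log2 fold change of the 10 was −1.92, beside −0.04 over all genes tested.

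**Figure D1:**
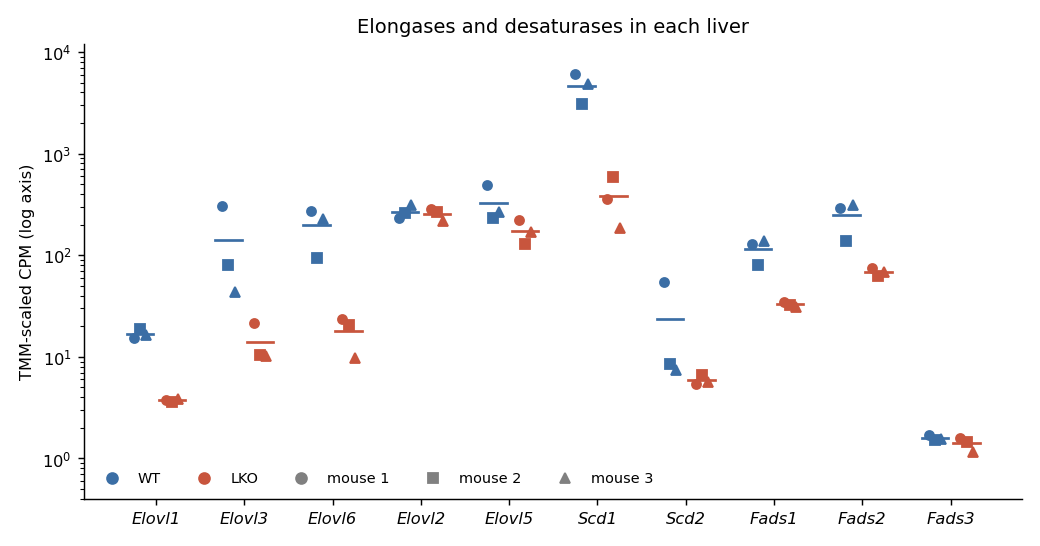
TMM-scaled CPM (log axis) of the 10 genes in each of 3 WT (blue) and 3 LKO (red) livers. Points are single mice, with a marker shape for the mouse number in its group, and lines are group means. *Scd1* lies at 3050.3 to 6076 CPM in WT and 187 to 593 in LKO livers, while *Elovl2* overlaps at 231 to 312 and 219 to 285.

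*Scd1*, which makes palmitoleate and oleate, was the most abundant of the 10 genes. It lies on chromosome 19 from 44394450 to 44407709 and was at 6076, 3050.3 and 4846 CPM in WT livers 1, 2 and 3 and at 361, 593 and 187 CPM in LKO livers 1, 2 and 3. Every LKO value lay far below every WT value, and the LKO mean of 381 ± 204 CPM (SD, n = 3) was 12.2-fold lower than the WT mean of 4657 ± 1521. The log2 fold change was −3.61 ± 0.47 (edgeR's quasi-likelihood test, Benjamini-Hochberg adjusted p = 0.00082). Only 118 of the 18636 genes, or 0.633%, had a lower fold change.

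*Scd2*, the form known from brain and from the developing liver, lies beside it on chromosome 19, from 44293676 to 44306864. Its CPM were 54.5, 8.54 and 7.48 in WT livers 1, 2 and 3 and 5.41, 6.59 and 5.71 in LKO livers 1, 2 and 3. WT mouse 1 alone was high, and the other WT livers lay close to the LKO livers without overlapping them. The log2 fold change of −2.0 ± 0.71 missed the threshold (edgeR's quasi-likelihood test, Benjamini-Hochberg adjusted p = 0.053), and without WT mouse 1 it was −0.44 with an adjusted p of 0.14 in the same test. *Scd1* to *Scd4* are close paralogs whose reads can be shared, so the split of counts among them is uncertain. *Scd3* was at 515, 220 and 0 read counts in WT livers 1, 2 and 3 and at 0 in all LKO livers, and neither it nor *Scd4* passed the filter for testing.

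Among the elongases of saturated and monounsaturated chains, *Elovl6*, *Elovl3* and *Elovl1* were all lower in LKO livers. *Elovl6* turns palmitate into stearate and spans positions 129532386 to 129638495 of chromosome 3. It was at 269.7, 93.2 and 229 CPM in WT livers 1, 2 and 3 and at 23.4, 20.6 and 9.67 CPM in LKO livers. The groups were well apart although WT mouse 2 was far below the other WT livers, and the log2 fold change was −3.46 ± 0.47 (edgeR's quasi-likelihood test, Benjamini-Hochberg adjusted p = 0.0009), 11-fold between the means.

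*Elovl3*, whose hepatic level is known to differ between the sexes and over the day, lies on chromosome 19 from 46131897 to 46135694 and varied 6.91-fold among WT livers. Its CPM were 302, 81 and 43.7 in WT livers 1, 2 and 3 and 21.6, 10.5 and 10.1 in LKO livers. The lowest WT value was still above the highest LKO value. The log2 fold change was −3.34 ± 0.70 (edgeR's quasi-likelihood test, Benjamini-Hochberg adjusted p = 0.0063), and without WT mouse 1 it was −2.13 with an adjusted p of 0.0081.

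*Elovl1*, which extends saturated chains to the very long ones of sphingolipids, was the most uniform within each genotype of the genes that fell. It spans 118426874 to 118432953 on chromosome 4 and was at 15.2, 18.9 and 16.4 CPM in WT livers and at 3.77, 3.61 and 3.87 CPM in LKO livers. The highest WT value was 1.24 times the lowest, and the highest LKO value 1.07 times the lowest. Its log2 fold change of −2.16 ± 0.16 had the lowest adjusted p of the 10 genes, 0.00021 (edgeR's quasi-likelihood test, Benjamini-Hochberg).

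Of the elongases of polyunsaturated chains, *Elovl5* was called lower and *Elovl2* was not. *Elovl2*, which completes the chain needed for docosahexaenoic acid, lies on chromosome 13 from 41182382 to 41220403 and was at 231, 259 and 312 CPM in WT livers 1, 2 and 3 and at 285, 264 and 219 CPM in LKO livers. The groups overlapped throughout. Its log2 fold change of −0.06 ± 0.18 lay near the median of all genes, with 49.1% of genes below it (edgeR's quasi-likelihood test, Benjamini-Hochberg adjusted p = 0.81), and its sign changed under 6 of 21 alternatives.

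*Elovl5*, which acts after the first desaturation, spans 77917365 to 77984519 on chromosome 9. Its level was 486, 233 and 265 CPM in WT livers 1, 2 and 3 and 222, 129 and 171 CPM in LKO livers. The lowest WT mouse and the highest LKO mouse, at 233 and 222 CPM, nearly met. The log2 fold change was −0.92 ± 0.31, just past the threshold (edgeR's quasi-likelihood test, Benjamini-Hochberg adjusted p = 0.047). The call was lost when WT mouse 1 (log2 fold change −0.51), WT mouse 3 (−1.07), LKO mouse 2 (−0.74) or LKO mouse 3 (−0.91) was left out, and under 5 other alternatives (adjusted p of 0.05 to 0.071).

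*Fads2* and *Fads1*, which add the double bonds nearest the carboxyl end of polyunsaturated chains, are neighbours on chromosome 19, from 10062765 to 10101503 and from 10182877 to 10196874, and fell by nearly the same amount. *Fads2* was at 293, 138 and 311 CPM in WT livers 1, 2 and 3 and at 75.3, 62.1 and 68.9 CPM in LKO livers. *Fads1* was at 129, 79.8 and 139 CPM in WT livers and at 34.9, 32.7 and 30.9 CPM in LKO livers. WT mouse 2 was the lowest WT mouse for both, and it stayed above all LKO livers. The log2 fold changes were −1.85 ± 0.29 and −1.82 ± 0.22 (edgeR's quasi-likelihood test, Benjamini-Hochberg adjusted p = 0.0019 and 0.00058).

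*Fads3*, the third gene of that cluster, from 10040855 to 10060113, encodes a desaturase of sphingoid bases. It was the lowest of the 10 genes, at 1.72, 1.53 and 1.56 CPM in WT livers (100 to 128 read counts) and at 1.59, 1.46 and 1.17 CPM in LKO livers (51 to 70 read counts). The groups overlapped, and its log2 fold change of −0.19 ± 0.26 did not pass the test (edgeR's quasi-likelihood test, Benjamini-Hochberg adjusted p = 0.6). With *Scd1*, *Scd2* and *Elovl3*, the *Fads* genes put 6 of the 10 genes on chromosome 19, which holds 3.56% of all genes tested.

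Within a genotype some mice were more often the highest or lowest than others, for which the labels give no reason. The same counts were not made over all genes tested, so they describe these genes only. WT mouse 1 was the highest WT mouse for 6 of the 10 genes and WT mouse 2 the lowest for 6. LKO mouse 1 was the highest LKO mouse for 7 and LKO mouse 3 the lowest for 6. *Elovl3* and *Scd2* were the genes for which WT mouse 1 stood farthest above the other WT livers. *Elovl1* and *Elovl2* went the other way, with WT mouse 1 the lowest.

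Levels of different genes can be compared only per length, and for that the deposited FPKM were used. In WT livers *Scd1* stood alone at 1163 ± 358 FPKM (SD, n = 3). *Elovl5* at 143 ± 59.7, *Fads2* at 102 ± 36, *Elovl3* at 91.9 ± 89.6 and *Elovl2* at 84.4 ± 10.7 FPKM followed, and each overlapped the next in this order. *Fads1* at 40.3 ± 9.43 and *Elovl6* at 39.8 ± 17.9 FPKM were likewise not separated, nor were *Elovl1* at 9.86 ± 2.27 and *Scd2* at 5.23 ± 5.96. *Fads3* was last, at 0.519 ± 0.00478 FPKM, below every other value.

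In LKO livers *Scd1* no longer stood apart. It was at 48.9 ± 21.1 FPKM, overlapping *Elovl2* at 43 ± 7.87, which overlapped *Elovl5* at 41.2 ± 15.2. *Fads2* at 15.4 ± 3.23 FPKM was separated from *Elovl5* and from *Fads1*, which at 6.12 ± 0.935 overlapped *Elovl3* at 4.9 ± 2.72. *Elovl6* at 1.93 ± 0.828 and *Elovl1* at 1.17 ± 0.183 FPKM overlapped, and *Scd2* at 0.69 ± 0.0192 and *Fads3* at 0.237 ± 0.0231 were each below all genes before them.

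**Figure D2:**
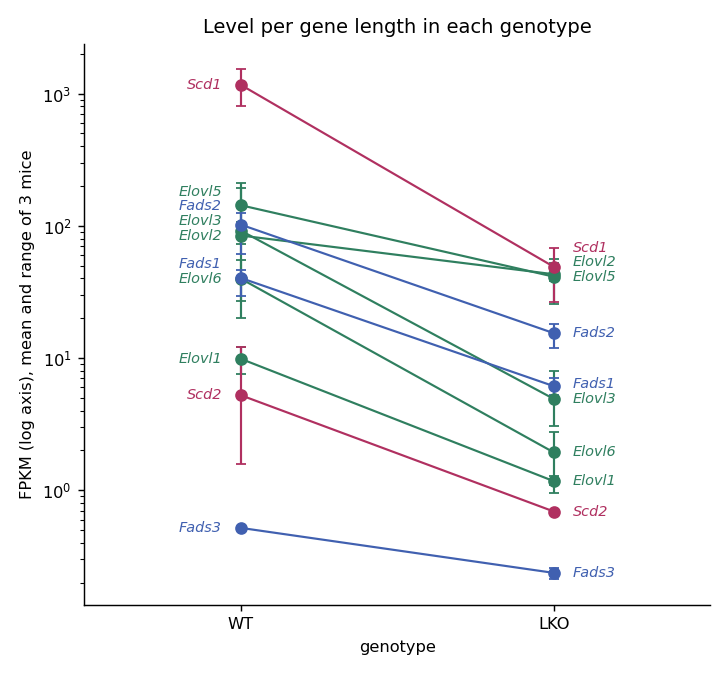
FPKM (log axis) of the 10 genes in WT and LKO livers, as the mean of 3 mice with bars from the lowest to the highest mouse, for elongases in green, *Scd* genes in red and *Fads* genes in blue. *Scd1* falls from 1163 to 48.9 FPKM, the level of *Elovl2* and *Elovl5* in LKO livers. FPKM carry no TMM factor: the means of *Scd1* differ 23.8-fold in FPKM and 12.2-fold in CPM.

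The summed FPKM of the 10 genes was 2242, 1179 and 1620 in WT livers 1, 2 and 3 and 199, 156 and 136 in LKO livers. FPKM carry no TMM factor, so the size of this difference depends on the scaling. The summed CPM was 7858, 3964 and 6171 in WT livers and 1033, 1123 and 708 in LKO livers. The shares that follow are of the summed FPKM. *Scd1* supplied 67.8 to 71.7% of the FPKM sum in every WT mouse and 19.3 to 43.7% in LKO livers. *Elovl2* supplied 3.25 to 7.31% in WT livers and 24.5 to 28.5% in LKO livers, and *Elovl5* 6.82 to 9.47% and 16.5 to 30.8%. For these 3 genes the shares were fully apart (exact permutation test, two-sided, p = 0.1 for each, which is the lower limit with 3 mice against 3). As the share of *Scd1* fell, the combined share of the other genes had to rise, though not that of each gene. *Elovl6* supplied 1.7 to 2.75% in WT livers and 0.81 to 1.39% in LKO livers. *Elovl3* supplied 1.65 to 8.65% and 1.96 to 4.04%, with overlap. With *Scd1* left out of the sum, *Elovl2* supplied 10.1 to 23.1% in WT and 35.3 to 43.5% in LKO livers, still apart, whereas *Elovl5* supplied 24.1 to 29.4% and 29.3 to 38.3% and overlapped (exact permutation test, two-sided, p = 0.1 and 0.2).

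How far the whole set lay below WT depended on the scaling between libraries. With total counts instead of TMM, the median of all genes moved by −0.86, to −0.90, and the calls over all genes went from 3815 lower and 3661 higher to 9575 lower and 1167 higher, so that 51.4% of genes were called lower. Under that scaling all 10 genes were called lower, with log2 fold changes from −4.52 for *Scd1* to −0.92 for *Elovl2*. *Elovl2* at −0.92 and *Fads3* at −1.05 then lay near the median of −0.90, as they lay near −0.04 with TMM. With limma on log2(TPM + 1), 13322 genes were called lower and 453 higher, and all 10 genes were called lower, from −5.22 for *Scd1* to −0.56 for *Fads3*. On that scale *Elovl2* was at −1.58, below the median of −0.79. The added 1 shrinks the changes of genes at low TPM, which also enter that median. On log2(TPM + 0.1), *Elovl2* was at −1.60 and *Fads3* at −1.43, and the median of all genes was not taken. How far the added value bears on the place of *Elovl2* was not tested.

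**Figure D3:**
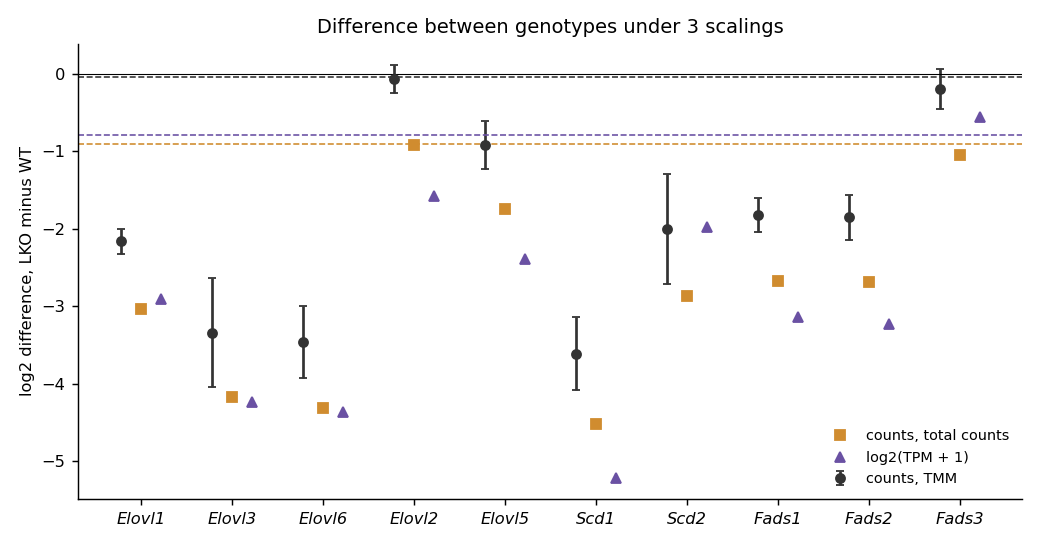
Log2 difference, LKO minus WT, of the 10 genes from counts with TMM (black, bars are ± 1 standard error), from counts with total counts (orange) and from log2(TPM + 1) (purple). Dashed lines are the medians of all genes tested on each scale, −0.04, −0.90 and −0.79. *Elovl2* and *Fads3* lie close to the first and second lines and the other genes below them.

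Ratios of 2 genes inside a library are free of that scaling. The 10 genes form 45 pairs, of which 27 (60%) had ratios that did not overlap between genotypes. Over all pairs of tested genes with no zero count, the share was 53.4%, so the number of separated pairs is near the background. No single pair can pass a threshold of 0.05, because the two-sided exact permutation test over 3 against 3 mice gives at least p = 0.1 (adjusted over the pairs, 0.167).

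Some ratios overlapped between the genotypes, and those given here were chosen after their values were seen. Overlap alone does not show that a pair kept step, since *Elovl1* to *Scd1* overlapped with a log2 difference of 1.55. The *Fads2* to *Fads1* count ratio was 2.28, 1.73 and 2.24 in WT livers and 2.15, 1.9 and 2.23 in LKO livers (mean 2.08 ± 0.306 and 2.1 ± 0.173, SD, n = 3 each). The *Scd1* to *Elovl6* count ratio was 22.5, 32.7 and 21.2 in WT livers and 15.5, 28.7 and 19.4 in LKO livers. In both cases the genotypes overlapped.

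Other ratios were apart, as is the case for 53.4% of all gene pairs, and the counts for single genes are a description. The *Scd1* to *Elovl2* count ratio was 26.3, 11.8 and 15.5 in WT livers and 1.27, 2.24 and 0.854 in LKO livers. *Elovl2* was higher relative to 7 of the other 9 genes in LKO libraries without overlap, all but *Scd2* and *Fads3*. *Fads3* was higher relative to 7 of 9 as well, all but *Elovl2* and *Scd2*. *Scd1* and *Elovl6* were each lower relative to 6 of 9 and higher relative to none. *Elovl5* was higher relative to 6 and lower relative to 2, *Elovl2* and *Fads3*.

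**Figure D4:**
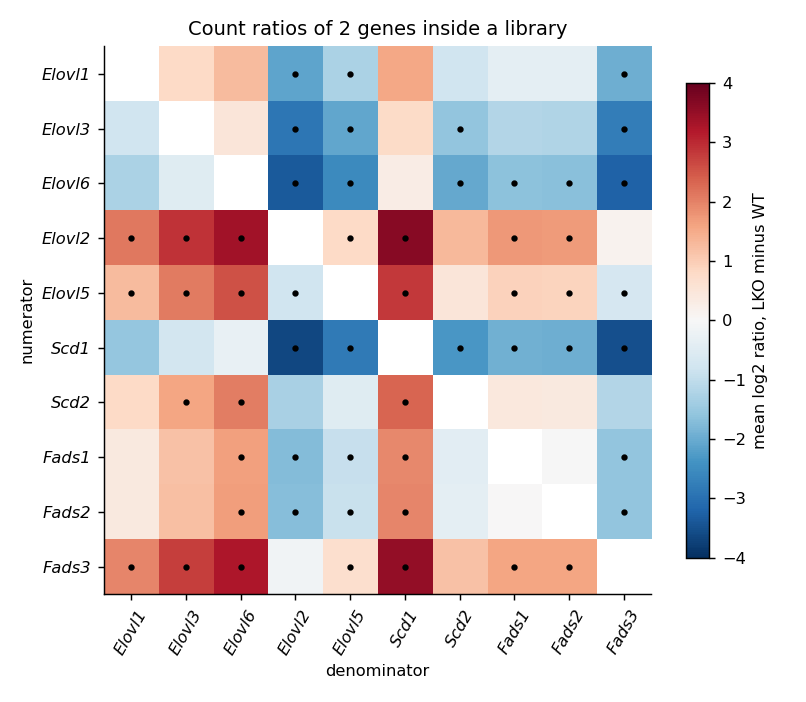
Difference between LKO and WT in the mean log2 ratio of read counts of the row gene to the column gene inside a library (red, higher in LKO, blue, lower). Dots mark pairs whose 3 WT and 3 LKO ratios do not overlap. The rows of *Elovl2* and *Fads3* are mostly red and those of *Scd1* and *Elovl6* mostly blue.

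The course of *Scd1* over the 6 libraries was set beside that of other genes as Pearson's r of log2 CPM, a description over libraries that share the genotype difference. Among the members *Elovl6* was nearest, at r = 0.9840, then *Fads1* at 0.9636, *Elovl1* at 0.9338 and *Fads2* at 0.9216. *Elovl2* was farthest, at 0.2671. Of the 12998 genes compared, 108 were closer to *Scd1* than *Elovl6* was. The 3 closest outside the set were *Mrps7* at 0.9976, a mitochondrial ribosomal protein, *Ces2a* at 0.9971, a carboxylesterase, and *Gm7208* at 0.9969.

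Genes that work with the elongases and desaturases were read from lists, in the same fit. The 7 lists hold 59 genes, of which 52 were tested. Their median log2 fold change was −0.65. Of those tested, 26 were called lower, 5 were called higher and 21 did not pass. Among all genes tested, 20.5% were called lower and 19.6% higher, and the counts of each list below stand beside these shares. With total counts, 43 list genes were called lower and 2 higher, beside 51.4% of all genes lower and 1167 of 18636 higher.

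**Figure D5:**
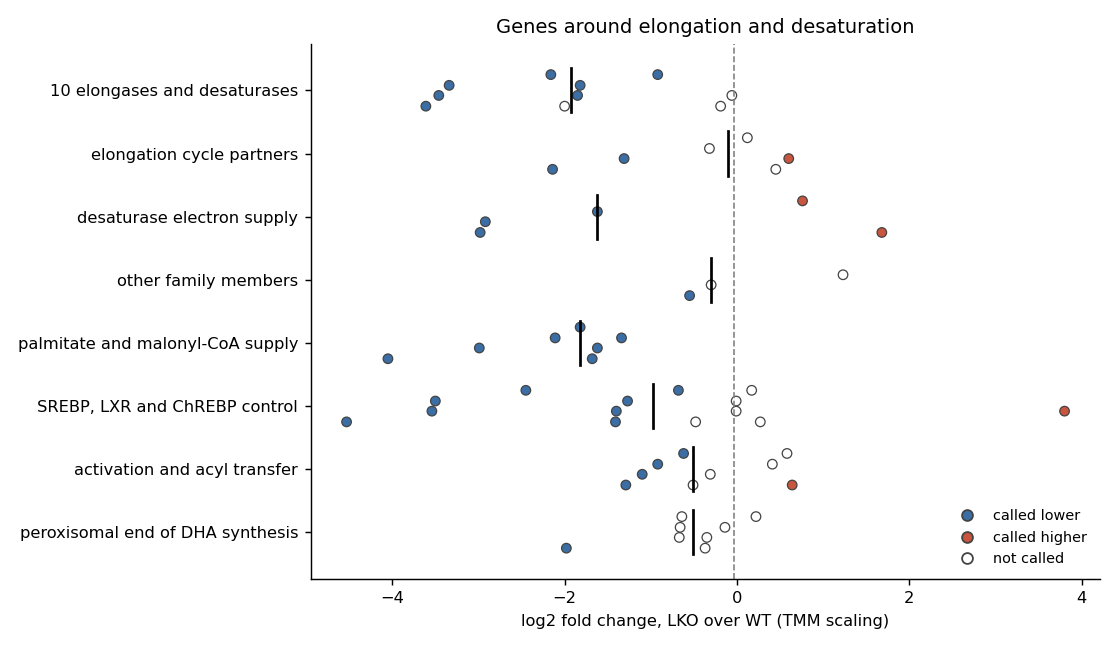
Log2 fold change, LKO over WT, of the 10 genes and of the tested genes of 7 lists, 1 point per gene, filled blue where called lower, filled red where called higher and open where not called. Black bars are the medians of each list and the dashed line is the median of all genes, −0.04. All 7 points of the palmitate and malonyl-CoA supply are blue, and *Insig2* at 3.80 is the point farthest to the right.

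The 7 genes that supply palmitate and malonyl-CoA, the substrates of elongation, all fell, with a median log2 fold change of −1.82. The paper reports that de novo lipogenesis genes, unnamed in its main text, did not differ significantly between the genotypes. It also reports terms of lipid biosynthesis among the genes lower in LKO livers in its RNA-Seq. *Fasn*, fatty acid synthase, was at 491 ± 268 CPM in WT and 29.6 ± 12.2 in LKO livers (SD, n = 3 each) and changed by −4.05 ± 0.55 (edgeR's quasi-likelihood test, Benjamini-Hochberg adjusted p = 0.00095). *Acly*, which makes cytosolic acetyl-CoA from citrate, changed by −2.99, *Acaca*, which makes malonyl-CoA, by −2.11, and *Me1*, a source of NADPH, by −1.82 (adjusted p = 0.0015, 0.00069 and 0.0035 in the same edgeR test). WT mouse 2 was the lowest WT mouse for all 4, as it was for *Elovl6* and *Scd1*. The *Scd1* to *Fasn* count ratio was 9.19, 16.8 and 7.71 in WT livers and 9.85, 16.2 and 12.1 in LKO livers, with overlap. The *Elovl6* to *Fasn* count ratio was 0.408, 0.513 and 0.364 in WT livers and 0.637, 0.565 and 0.623 in LKO livers, without overlap. Both ratios were chosen after their values were seen.

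The other enzymes of the elongation cycle split. Of 6 tested, *Tecr*, the reductase of the last step, and *Hsd17b12*, the reductase of the second step, fell, 1 rose and 3 did not pass, and the median was −0.10. *Tecr* was at 53.4, 56.8 and 56.5 CPM in WT livers and at 15, 11.8 and 11 CPM in LKO livers, with a log2 fold change of −2.14 ± 0.16 (edgeR's quasi-likelihood test, Benjamini-Hochberg adjusted p = 0.00021). *Hsd17b12* changed by −1.31 ± 0.19 (adjusted p = 0.0012 in that edgeR test). Of the dehydratases of the third step, *Hacd4* was higher by 0.60 ± 0.20 (adjusted p = 0.045 in that edgeR test), a call lost when any single mouse was left out, and it was lower with total counts, at −0.28. The more abundant *Hacd3* did not pass, at 184 ± 17 CPM in WT and 201 ± 39.3 in LKO livers.

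The electron supply of the desaturases moved in both directions. *Cyb5r3*, the main cytochrome b5 reductase, fell from 168 ± 29.6 to 21.3 ± 3.3 CPM (SD, n = 3 each), a log2 fold change of −2.98 ± 0.20 (edgeR's quasi-likelihood test, Benjamini-Hochberg adjusted p = 0.00018). *Cyb5b*, the cytochrome b5 of the outer mitochondrial membrane, was at 418, 359 and 406 CPM in WT livers and at 62.4, 51.4 and 42.1 CPM in LKO livers. *Cyb5a*, the cytochrome b5 of the endoplasmic reticulum, went the other way, at 497, 414 and 500.1 CPM in WT livers and at 1436, 1912 and 1172 CPM in LKO livers. All LKO values of *Cyb5a* were above and all LKO values of *Cyb5b* below the WT values.

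The log2 fold changes of these cytochromes were −2.92 ± 0.20 for *Cyb5b* and 1.68 ± 0.24 for *Cyb5a* (edgeR's quasi-likelihood test, Benjamini-Hochberg adjusted p = 0.00018 and 0.0011). On log2(TPM + 1), *Cyb5a* was at 0.11 with an adjusted p of 0.54 from limma. Inside each library the *Cyb5a* to *Cyb5b* count ratio was 1.19, 1.15 and 1.23 in WT livers and 23, 37.2 and 27.9 in LKO livers. This ratio was chosen after its values were seen. Of the other reductases, *Cyb5r1* fell by 1.62 on the log2 scale, *Cyb5r4* was called higher at 0.76 (−0.10 and not called with total counts), and *Cyb5r2* was at 0 counts in all libraries.

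Of 14 genes around SREBP-1c, the liver X receptors and ChREBP, 8 fell, 1 rose and 5 did not pass. *Srebf1*, which encodes SREBP-1, was at 98.9, 69.8 and 186 CPM in WT livers and at 11.5, 10.9 and 8.89 CPM in LKO livers, a log2 fold change of −3.50 ± 0.36 (edgeR's quasi-likelihood test, Benjamini-Hochberg adjusted p = 0.00037). *Thrsp*, a lipogenic protein of liver, changed by −4.53 and *Mlxipl*, which encodes ChREBP, by −1.40 (adjusted p = 0.0012 and 0.0005 in that edgeR test). *Nr1h3*, which encodes LXRα, did not pass, at 0.17 ± 0.16 (adjusted p = 0.44 in that edgeR test). With total counts it was called lower, at −0.71.

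The INSIG proteins hold SREBP precursors in the endoplasmic reticulum, and their genes moved in opposite directions. *Insig1* was at 334, 166 and 416 CPM in WT livers and at 20.3, 24.1 and 34.6 CPM in LKO livers. *Insig2* was at 182, 107 and 63.3 CPM in WT livers and at 1359.6, 1293 and 2262 CPM in LKO livers. The log2 fold changes were −3.54 ± 0.37 and 3.80 ± 0.43 (edgeR's quasi-likelihood test, Benjamini-Hochberg adjusted p = 0.00038 and 0.00049), and *Insig2* was also called higher with total counts, at 2.94. The *Insig2* to *Insig1* count ratio, chosen after its values were seen, was 0.546, 0.644 and 0.152 in WT livers and 66.9, 53.7 and 65.3 in LKO livers.

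Of 9 tested genes of acyl-CoA activation and transfer into phospholipid, 4 fell and 1 rose, with a median of −0.51. *Acsl3* changed by −1.29, *Acsl1*, the main long-chain acyl-CoA synthetase of liver, by −1.10, *Mboat7*, which places arachidonate in phosphatidylinositol, by −0.92, and *Agpat3* by 0.64 (edgeR's quasi-likelihood test, Benjamini-Hochberg adjusted p = 0.012, 0.034, 0.0058 and 0.012). *Acsl1* lost its call without WT mouse 1, WT mouse 3, LKO mouse 2 or LKO mouse 3 (−0.74, −1.17, −0.92 and −1.0), and *Agpat3* without WT mouse 2 or WT mouse 3 (0.50 and 0.65). With total counts *Agpat3* was at −0.22.

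Of 8 genes of the peroxisomal end of docosahexaenoic acid synthesis, *Acaa1b*, a peroxisomal thiolase, fell by 1.98 on the log2 scale (edgeR's quasi-likelihood test, Benjamini-Hochberg adjusted p = 0.0056) and 7 did not pass, with a median of −0.51. Among relatives outside the 10 genes, 3 of 7 were tested. *Fads6* was called lower, at −0.55 ± 0.18 (adjusted p = 0.039 in that edgeR test), and lost the call without WT mouse 1, 2 or 3 or LKO mouse 1 or 2. *Degs1*, the dihydroceramide desaturase, was at 57.9 ± 2.13 CPM in WT and 46.9 ± 1.56 in LKO livers and did not pass, and *Elovl4* was at 0 counts in all libraries.

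Markers of liver cell types were read beside these values, against the 40.1% of all genes called. In bulk tissue, fewer cells of a type and less RNA per cell cannot be told apart. Of 5 hepatocyte markers, 3 were called higher and 1 lower, and their summed CPM was 27199 to 31952 in WT livers and 81079 to 101029 in LKO livers, mostly *Alb*. Of 6 macrophage and Kupffer cell markers 3 were higher (sum 267 to 408 and 436 to 848 CPM), of 6 endothelial markers 4 were higher (227 to 271 and 403 to 422), and of 6 stellate cell and fibroblast markers 2 were higher and 1 lower (279 to 328 and 569 to 824, with *Dcn* rising from a mean of 116 to 505 CPM and *Col3a1* falling from 80.4 to 22.4). Of 4 tested cholangiocyte markers 1 was lower (32.9 to 50.2 and 13.7 to 30.2), and of 4 erythroid markers 1 was higher and 1 lower (164 to 271 and 686 to 1277, with *Hbb-bs* rising from a mean of 120.3 to 897 CPM and *Alas2* falling from 55.2 to 21.4). The 4 lymphocyte markers had Benjamini-Hochberg adjusted p of 0.11 to 0.49 in edgeR's quasi-likelihood test (42.3 to 62.3 and 29.2 to 43.2). The directions turned with the scaling. With total counts 2 macrophage and Kupffer cell markers were called lower and 2 higher, as were 2 and 2 endothelial markers, and on log2(TPM + 1) 3 and 4 of them, in this order, were called lower. Of the hepatocyte markers, 2 were lower and 3 higher with total counts, and 2 were lower on log2(TPM + 1). The part of these cells in the values of the 10 genes was not tested.

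Adipocytes also express *Scd2* and *Elovl6*, and brown adipocytes *Elovl3*. The adipocyte genes *Plin1* and *Lep* were at 0 counts in all 6 libraries. *Adipoq* was at 4 counts in WT mouse 3, at 3 in LKO mouse 1 and at 0 in the others, WT mouse 1 among them. *Plin4* and *Cfd*, the other markers of that list, were both called lower. *Cfd* was at 2.75 CPM in WT mouse 1 and at 1.27 CPM in each of the other WT livers. Among WT livers, *Scd2* and *Elovl3* were also highest in mouse 1, as were *Elovl5*, *Elovl6*, *Scd1* and *Fads3*. Whether adipocytes had a part in these values was not tested.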

How the data were processed

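Liver RNA from 3 WT and 3 LKO mice was sequenced as 1 library per mouse. The methods name a kit that removes ribosomal RNA, whereas the labels name one that selects mRNA. The submitters' processing notes list bcl2fastq 2.20.0, FastQC 0.11.7, HISAT2 2.1.0, Bowtie2 2.3.4.1 and StringTie 2.1.3b, with the genome mm10. Use of strand in counting is not given in the sources used here.

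The authors deposited read counts without normalization, which StringTie derives from coverage. The authors also deposited FPKM, per length and per fragment sequenced, and TPM, scaled to the same sum in each mouse. Entrez numbers of 45679 of the 45777 genes, and of all 10 members, matched RefSeq on GRCm38.p6.

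Genes with more than 1 zero count were left out, which left 18636. TMM factors entered a quasi-likelihood fit in edgeR 4.0.16 (R 4.3.3) with genotype as the only term. Its two-sided p-values were adjusted over all genes by Benjamini-Hochberg and called under 0.05. FPKM served for levels between genes. TPM were tested with limma 3.58.1 on log2(TPM + 1). Single values were compared with two-sided exact permutation tests over all splits of the mice. The p-values of the member ratios were adjusted by Benjamini-Hochberg in SciPy 1.17.1.

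Members and lists were chosen with earlier results of these data known. Named genes were the 10 members, *Pak4*, of each list up to 4 called genes with the largest change, 5 control genes whatever their result (*Srebf1*, *Nr1h3*, *Mlxipl*, *Insig1* and *Insig2*), and the 3 genes closest to *Scd1* by Pearson's r among genes of at least 1 mean CPM. Other genes and ratios named were chosen after their values were seen. The procedures were tested on simulated counts, with 200 of 18432 genes changed by 2 on the log2 scale in either direction. That check does not cover data in which 40.1% of genes are called, nor the choice of scaling. Alternatives included edgeR's exactTest, DESeq2 1.42.0, other scalings and filters, a gene length correction, the replicate block and leaving out each mouse.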

Additional observations from a re-analysis of the deposited data

How the results depend on the processing

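*Scd1*, *Elovl6*, *Elovl3*, *Elovl1*, *Fads1* and *Fads2* were called lower under all 21 alternative fits, and *Elovl5* was lower under all 21 but called under 12. *Scd2* was called under 11, among them edgeR's exactTest (adjusted p = 0.013). Members called ranged from 6 to 10, and from 6 to 8 when 1 mouse was left out. *Elovl2* reversed with upper-quartile scaling (0.02), protein-coding genes alone (0.00), the gene length correction (0.08), and without WT mouse 3 (0.06) or LKO mouse 3 (0.04), within −0.16 to 0.06 when 1 mouse was left out. With total counts, protein-coding total counts, log2(TPM + 1) and log2(TPM + 0.1), in this order, *Hacd4* reversed to −0.28, −0.11, −0.59 and −0.82, *Agpat3* to −0.22, −0.04, −0.76 and −0.80, and *Nr1h3* to −0.71, −0.52, −1.36 and −1.39. Under the same 4, list genes called lower were 43, 41, 49 and 49 and called higher 2, 2, 1 and 1, and *Pak4* passed the threshold at −1.54, −1.37, −1.19 and −2.14. The cause was not tested. Protein-coding total counts gave 8280 genes lower and 1443 higher. Genes called numbered 7476, against 13775 and 14002 on log2(TPM + 1) and log2(TPM + 0.1), 4374 at an adjusted p under 0.01 and 4639 with at least a 2-fold change. Leaving out 1 mouse gave 5617 to 7230 genes called, 22 to 26 list genes lower and 3 to 5 higher (3 without WT mouse 2 or WT mouse 3), *Pak4* from −1.08 (called, without LKO mouse 3) to −0.50, and 27 to 32 of the 45 member ratios without overlap. With FPKM in place of counts, 25 ratios did not overlap.

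Deviations of same-numbered mice from their group means correlated at 0, −0.039 and −0.056, so no shared deviation was seen. The labels do not say whether the replicate numbers pair the mice, and these values cannot decide it. With the replicate block, 6431 genes and 7 members were called, *Elovl5* at −0.87 (adjusted p = 0.016) and *Scd2* at −1.31 (0.14), and with block and gene length correction *Elovl2* was at 0.08. The block lost the calls of *Hacd4* (0.058) and *Fads6* (0.053). *Fads3* rests on the fewest counts of the 10 genes, 51 to 128 per library.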
